A study of Mus musculus with 26 samples.

Results

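The comparison described here is that of cortical nuclei from embryos without the receptor Csf1r, after maternal immune activation (MIA) and after saline. Its members are the 4 libraries labelled Csf1r-null, 2 after MIA and 2 after saline, of the 26 samples of the series, and they hold 22719 of its 43456 nuclei. A barcode was kept as a nucleus when it had at least 500 UMIs (unique molecular identifiers, each standing for 1 captured RNA molecule) and 200 genes. The UMIs of all kept nuclei of a library were summed per gene, genes were joined across libraries by Ensembl ID, and each MIA library was set against the saline library of the same replicate number. These 2 comparisons are called pair 1 and pair 2.

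The study asked how an immune response of the mother alters the embryonic cortex and whether microglia take part in it. Pregnant C57Bl/6N mice were injected at E12.5 with poly(I:C), a synthetic RNA used to trigger antiviral immunity, or with saline, and the cortex region that will become somatosensory cortex was taken at E15.5. The Csf1r-null embryos carried a germline deletion of Csf1r on the same background, came from crosses of heterozygous parents, and were male, as were the wild-type (WT) embryos of the other 4 nuclei libraries. By the study's sample sheet the library of Csf1r-null saline replicate 2 pooled embryos and the other 3 did not. By the paper, the nuclei came from 4 pregnant dams in all, and the WT embryos were littermates of the Csf1r-null embryos. Which dam each library came from is not given in the sources used here. Libraries can thus share a dam, and the fit took no account of this. The p-values measure the spread between these libraries, and a treatment and a dam cannot be told apart.

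Csf1r is the receptor through which microglia, the resident macrophages of the brain, receive the survival signals Csf1 and IL-34. Microglia enter the embryonic brain from the yolk sac, and mice without the receptor largely lack them. A sum over cortical nuclei is mostly RNA of progenitors and young neurons, and in such a sum fewer cells of a type and less RNA per cell cannot be told apart.

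The microglial genes went with the label in 3 of the 4 libraries and against it in the fourth. The 12 microglial markers summed to 11 UMIs in Csf1r-null saline replicate 1, 8 in MIA replicate 1 and 17 in MIA replicate 2, and to 138 in the library that is labelled Csf1r-null saline replicate 2. The complement gene C1qb had 0, 0 and 0 UMIs in the first 3 and 25 in the last, and the purinergic receptor gene P2ry12 had 1, 2, 2 and 17. All 12 markers were above 0 in the library that is labelled Csf1r-null saline replicate 2, while 7, 8 and 5 of them were at 0 in the other 3. Csf1r itself had 4, 2, 1 and 10 UMIs in the same order, but the part of the gene that was deleted is not given in the sources used here, so reads at its 3′ end check little. The library labelled WT MIA replicate 2 had 15 microglial UMIs against 177 to 398 in the other 3 WT libraries. Labels were used as deposited. Both libraries have replicate number 2, and whether their labels were exchanged was not tested. By the methods, each embryo was genotyped for Csf1r from a tail sample when the tissue was frozen. Had the labels of the 2 libraries been exchanged, pair 2 would set Csf1r-null MIA nuclei against WT MIA nuclei. The WT pair of replicate number 2 would then set Csf1r-null saline nuclei against WT saline nuclei. The values of both pairs are thus comparisons of MIA with saline only as far as the labels hold.

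Depth differed along the same comparison. The median nucleus held 2036.5 UMIs after saline and 2953.5 after MIA in pair 1, and 1469 and 1630 in pair 2. Totals lay between 9897721 and 14865613 UMIs per library. Mitochondrial transcripts, which nuclei should lack, made up 0.0346% of UMIs after saline and 0.0241% after MIA in pair 1, against 0.0213% and 0.0281% in pair 2. At most 14 barcodes were shared by a pair of the 8 nuclei libraries, where 5.34 were due by chance for that pair.

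No gene was called between MIA and saline in Csf1r-null nuclei by edgeR's quasi-likelihood test across all 8 nuclei libraries with the replicate number as a block (0 of 14509 genes tested at an adjusted p of 0.05, or 0%). At an unadjusted p under 0.05, 57 genes were higher after MIA (0.393%) and 104 were lower (0.717%), and the smallest adjusted p was 0.187. DESeq2 on the same design called 2 genes, Hba-a1 and Hba-a2, and edgeR on the 4 Csf1r-null libraries alone called 9 (0.062%). A single value compared over 2 libraries against 2 cannot reach a two-sided exact permutation p below 0.333. The 3 genes with the lowest p of at least 10 CPM were the hemoglobin genes Hba-a1, Hba-a2 and Hba-x, which were also the 3 called when no filter on low counts was used.

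Hemoglobin is made of alpha and beta chains whose genes lie in clusters on different chromosomes, and each cluster holds embryonic genes, used by the first red cells that form in the yolk sac, and adult-type genes, used by red cells from the fetal liver onward. Red cells of the yolk sac wave keep their nuclei while they circulate and later lose them, so both kinds can be present in the blood vessels of an E15.5 brain. Hba-x (chr11:32276400-32278116, + strand, GRCm38) is the embryonic alpha-like gene, and Hba-a1 (chr11:32283511-32284465) and Hba-a2 (chr11:32296489-32297298) are the adult-type alpha genes of the same cluster. Hbb-y is an embryonic beta-like gene, and Hbb-bs and Hbb-bt are the adult-type beta genes.

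The 150 bases before the RefSeq start site are shown for 4 of these genes. Summed over all nuclei, Hba-x, Hbb-y and the adult alpha genes had higher values after MIA in both pairs, while the adult beta genes did not. Without nuclei of at least 5 globin UMIs, all 4 adult-type globins moved alike within each pair. Whether promoter sequence bears on these values was not tested. Capitals mark the letters GATAA (the GATA motif), CACCC (the motif of Klf1), CCAAT (the CCAAT box) and TATAA (the TATA box), searched on both strands.
Hba-x: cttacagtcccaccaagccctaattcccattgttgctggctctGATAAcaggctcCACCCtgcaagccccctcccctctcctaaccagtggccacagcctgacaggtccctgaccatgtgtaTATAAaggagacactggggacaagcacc
Hbb-y: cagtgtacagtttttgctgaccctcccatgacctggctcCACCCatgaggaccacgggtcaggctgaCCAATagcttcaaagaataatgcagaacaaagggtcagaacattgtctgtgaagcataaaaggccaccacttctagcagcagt
Hba-a1: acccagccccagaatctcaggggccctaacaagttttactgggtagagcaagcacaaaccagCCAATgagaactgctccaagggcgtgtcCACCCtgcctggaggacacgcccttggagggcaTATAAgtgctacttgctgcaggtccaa
Hbb-bs: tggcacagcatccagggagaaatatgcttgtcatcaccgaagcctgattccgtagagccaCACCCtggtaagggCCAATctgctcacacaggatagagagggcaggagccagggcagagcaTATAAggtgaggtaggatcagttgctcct

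The Hba-x sequence lies at chr11:32276450-32276599 and that of Hba-a1 at chr11:32283522-32283671 on the + strand, and those of Hbb-y and Hbb-bs lie at chr7:103853208-103853357 and chr7:103827929-103828078 on the - strand (RefSeq, GRCm38.p6). CACCC stood once in each of the 4 and in 37.4% of all 32851 promoters of the table. CCAAT stood in all but Hba-x (24.5% of promoters) and TATAA in all but Hbb-y (14.2%), while GATAA stood only in Hba-x among the 4 (13.3%). The window of Hba-a2 is the same as that of Hba-a1 over 147 of 147 aligned bases. Of the stretches of 90 bases in the Hba-a2 transcript, 77.2% occur letter for letter in that of Hba-a1, and 63.3% of those of Hbb-bs occur in Hbb-bt, so the split of reads within each of these gene pairs is uncertain.

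Summed over all nuclei, both adult alpha genes stood higher after MIA in both pairs. Hba-a1 had 47.2 CPM (UMIs per 1000000 UMIs of the library) after saline and 103 after MIA in pair 1, and 35.4 and 92.7 in pair 2. The groups did not overlap, and the fit gave a log2 fold change of 1.27, standard error (SE) 0.16 (edgeR, adjusted p = 0.187). Hba-a2 had 33.4 and 66.5 CPM in pair 1 and 29.99 and 61.0 in pair 2, a log2 fold change of 1.01, SE 0.15 (adjusted p = 0.357). The higher values of both genes are those of the MIA libraries.

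By the fit the embryonic genes had larger differences, with wider errors, but within pair 2 Hbb-y changed less than Hba-a1 and Hba-a2. Hba-x had 0.482 CPM after saline and 36.1 after MIA in pair 1, from 7 and 535 UMIs, and 5.55 and 46.8 CPM in pair 2, from 54 and 513 UMIs. Its log2 fold change was 3.96, SE 0.65 (edgeR, adjusted p = 0.636). Hbb-y, added to the genes named after its values were seen, had 2.82 and 83.7 CPM in pair 1 and 38.3 and 73.9 in pair 2, a log2 fold change of 1.97, SE 1.02 (adjusted p = 1). In both genes the MIA libraries lay above the saline libraries, as did 9.28% of all genes tested, and 6.23% lay below.

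The adult beta genes took opposite directions in the 2 pairs. Hbb-bs had 88.4 CPM after saline and 44.5 after MIA in pair 1, and 72.8 and 112 in pair 2. Hbb-bt had 28.2 and 16.2 CPM in pair 1 and 25.3 and 33.1 in pair 2. Hbb-bh1, another embryonic beta-like gene, had at most 4 UMIs in any of the 4 libraries, and no gene of the erythroid list outside the globins reached an unadjusted p under 0.05. Of the 7 erythroid genes tested, 4 were higher in both pairs and 3 went opposite ways.

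Most of the Hba-x and Hbb-y RNA sat in 4 nuclei of 22719. In Csf1r-null MIA replicate 1, 1 nucleus of 3612 UMIs held 2838 globin UMIs (78.6% of its RNA), among them 964 of Hba-a1, 435 of Hba-x and 786 of Hbb-y. A nucleus of the same library with 1243 UMIs held 788 globin UMIs. In MIA replicate 2, 1 nucleus of 3932 UMIs held 2388 (60.7%), with 598 of Hba-a1, 484 of Hba-x and 740 of Hbb-y. In the library that is labelled Csf1r-null saline replicate 2, 1 nucleus of 1508 UMIs held 540 (35.8%), and in saline replicate 1 no nucleus held more than 88 globin UMIs. These 4 nuclei had between 255 and 428 genes, against library medians of 890 to 1661. Alas2, the first enzyme of heme synthesis in red cells, had at most 2 UMIs in any of them.

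**Figure D1:**
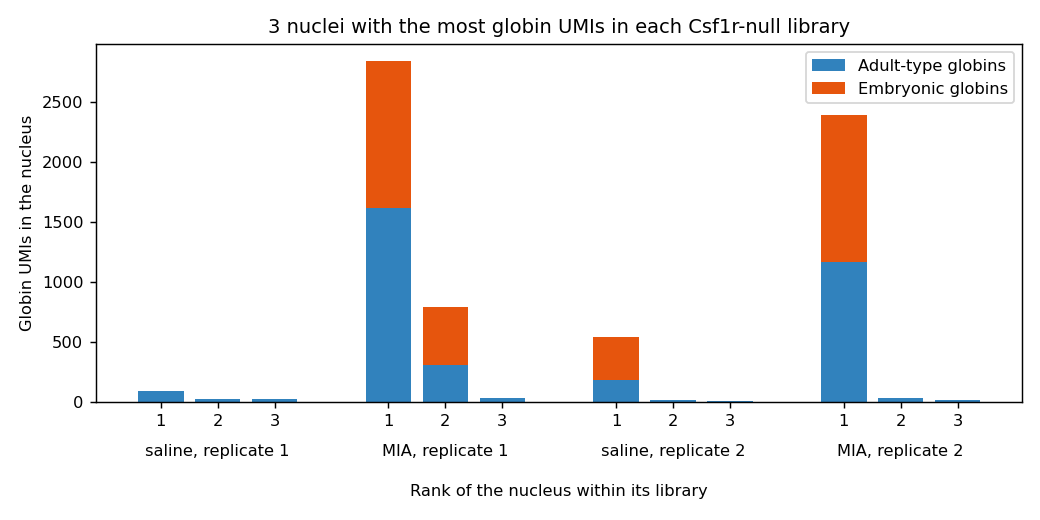
Globin UMIs (vertical axis) in the 3 nuclei with the most globin UMIs of each Csf1r-null library, split into adult-type genes (Hba-a1, Hba-a2, Hbb-bs, Hbb-bt) and embryonic genes (Hba-x, Hbb-y, Hbb-bh1). MIA replicate 1 has nuclei of 2838 and 788 globin UMIs, MIA replicate 2 has 1 of 2388, the library labelled saline replicate 2 has 1 of 540, and the highest of saline replicate 1 has 88.

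In the Csf1r-null libraries, few nuclei carried a larger share of globin UMIs after MIA, largely through the nuclei named above. The 10 highest nuclei held 77.4% of all Hba-a1 UMIs in MIA replicate 1 and 62.1% in MIA replicate 2, but 8.60% in saline replicate 1 and 36.5% in the library labelled saline replicate 2. In the libraries labelled WT this share had no common direction. It was 40.3% after saline and 56.9% after MIA in replicate 1, and 24.1% and 15.8% in replicate 2. For most genes no nucleus weighed so much: over the 9473 genes tested with a mean of at least 10 CPM, the largest share of a library's UMIs in 1 nucleus had a median of 0.99%, and 11 genes reached 20%, 4 of them Hba-x, Hbb-y, Hba-a1 and Hba-a2. Counted as nuclei with any Hba-a1 UMI after each nucleus was thinned to 500 UMIs, the shares were 2.99% after saline and 1.49% after MIA in pair 1, and 1.43% and 2.12% in pair 2. Unthinned, they were 9.27% and 6.68% in pair 1 and 3.62% and 5.82% in pair 2. More nuclei with an Hba-a1 UMI after MIA were thus seen in pair 2 and fewer in pair 1.

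Nuclei with at least 5 globin UMIs, 44 and 37 in pair 1 and 15 and 29 in pair 2 (saline first), were then left out, an alternative chosen after the data were seen. Hba-a1 had 40.8 CPM after saline and 21.1 after MIA in pair 1, and 23.2 and 34.5 in pair 2. Its log2 fold change turned from 1.27 to -0.21, SE 0.32 (edgeR, adjusted p = 1), and that of Hba-a2 from 1.01 to -0.18. Hba-x then had 0.417, 0.614, 0.618 and 2.39 CPM in saline 1, MIA 1, the library labelled saline 2 and MIA 2, from 6, 9, 6 and 26 UMIs. All 4 adult-type globins were then lower after MIA in pair 1 and higher in pair 2. These nuclei were chosen by their globin counts, so lower globin levels without them follow from the choice.

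**Figure D2:**
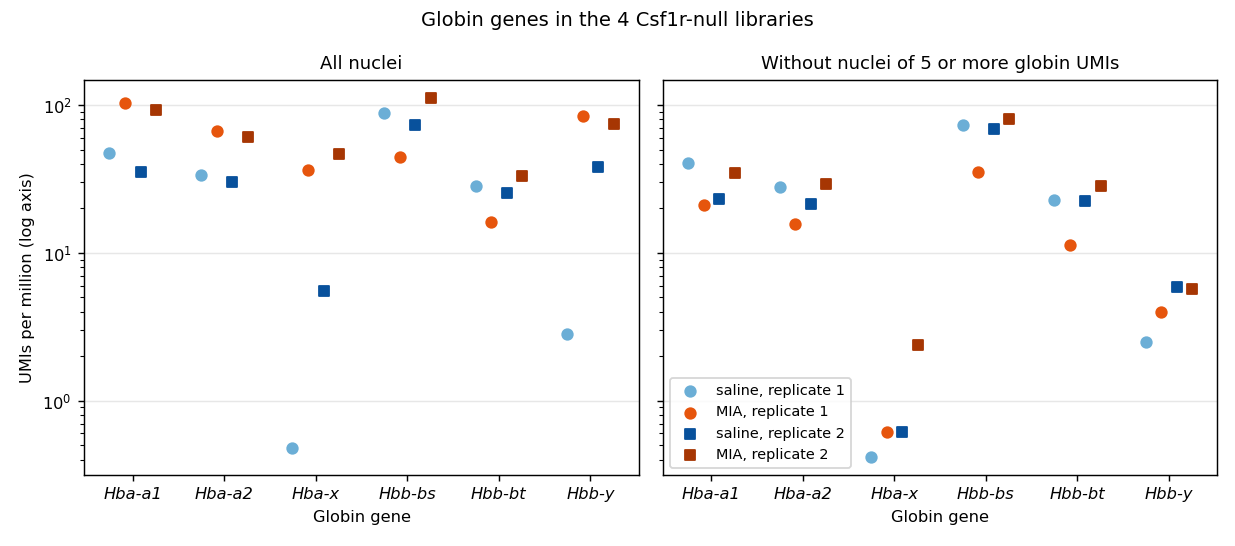
CPM (log axis) of 6 globin genes in the 4 Csf1r-null libraries, over all nuclei (left) and without nuclei of at least 5 globin UMIs (right). On the left Hba-a1 lies at 103 and 92.7 after MIA against 47.2 and 35.4 after saline, and on the right at 21.1 and 34.5 against 40.8 and 23.2.

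The files of replicate number 1 also list barcodes outside the nuclei, which held 40.5% of all UMIs in saline replicate 1 and 42.8% in MIA replicate 1. There the adult globins were less abundant in the MIA library, with 282 CPM of Hba-a1 in saline and 199 in MIA and 534 and 274 of Hbb-bs. Of the embryonic genes, Hba-x had 4.13 and 13.2 CPM and Hbb-y 13.7 and 77.6, while Hbb-bh1 had 1 UMI in each. Hba-x and Hbb-y thus stood higher in the MIA library of pair 1 both inside and outside the nuclei, and the adult beta globins lower in both. Inside and outside are parts of the same libraries. Outside the nuclei of WT replicate 1, Hba-x likewise had 8.44 CPM in saline and 16.6 in MIA, Hbb-y 21.8 and 69.1, and Hbb-bs 584 and 480. The files of replicate number 1 list 6794880 barcodes each, while those of replicate number 2 list 5973 (labelled saline) and 6198 (MIA). The latter hold 0.0757% and 0% of UMIs outside the nuclei, so this comparison could not be made for pair 2.

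Nuclei labelled Csf1r-null and WT differed in their alpha-globin response by edgeR's test of the difference, the only 2 genes of 14509 called (0.0138%). In nuclei labelled WT, Hba-a1 had 161 CPM after saline and 89.4 after MIA in replicate 1, and 93.5 and 61.0 in replicate 2, lower after MIA in both, where 61.0 is the library labelled WT MIA replicate 2 with its 15 microglial UMIs. The difference between genotypes was 2.07 on the log2 scale, SE 0.22 for Hba-a1 and 1.93 for Hba-a2 (adjusted p = 0.0248 for each). Without the nuclei of at least 5 globin UMIs it was 0.43 with an adjusted p of 0.934 for Hba-a1 and 0.58 with 0.92 for Hba-a2, and no gene was called. Those nuclei were chosen by their globin counts, so the smaller difference and the loss of both calls can follow from the choice. Without the library that is labelled Csf1r-null saline replicate 2 no gene was called either, nor without Csf1r-null saline replicate 1, Csf1r-null MIA replicate 2, either WT MIA library or the replicate block, while 25 were called without WT saline replicate 2, among them 5 interneuron markers (Dlx1, Dlx2, Dlx5, Dlx6os1 and Gad2) and 2 ventral forebrain markers (Ebf1 and Sp9), genes named here after their values were seen. WT saline replicate 1, then the only WT saline library, stands apart in these lists, with ventral forebrain markers at 1008 CPM against 40.2 to 44.8 in the other WT libraries and interneuron markers at 1287 against 297 to 429. At an unadjusted p under 0.05 there were 718 genes (4.95%) with all libraries. Single globin-rich nuclei were also present in WT libraries, with at most 1183 globin UMIs in WT saline replicate 1, 1501 in WT MIA replicate 1, 210 in WT saline replicate 2 and 137 in the library labelled WT MIA replicate 2.

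Beyond the globins, the 2 pairs mostly differed in direction. Both pairs were higher after MIA for 22.4% of the genes tested and both were lower for 19.2%, while 8438 of 14509 genes went opposite ways and 34 had no difference in a pair. Among the 4092 genes with a mean of at least 50 CPM, the log2 differences of pair 1 and pair 2 had a Pearson correlation across genes of -0.51. It was -0.25 over the 9473 genes of at least 10 CPM and -0.05 over all genes tested. The pairs share no library, and each point is a gene, not a replicate. The pairs labelled WT had a correlation of 0.29 over the 4092 genes. Over the same genes, pair 1 had correlations of 0.51 and 0.51 with the WT pairs of replicate numbers 1 and 2. Pair 2 had correlations of -0.37 and -0.57 with them. Pair 2 and the WT pair of replicate number 2 each hold a library whose microglial markers go against its label.

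**Figure D3:**
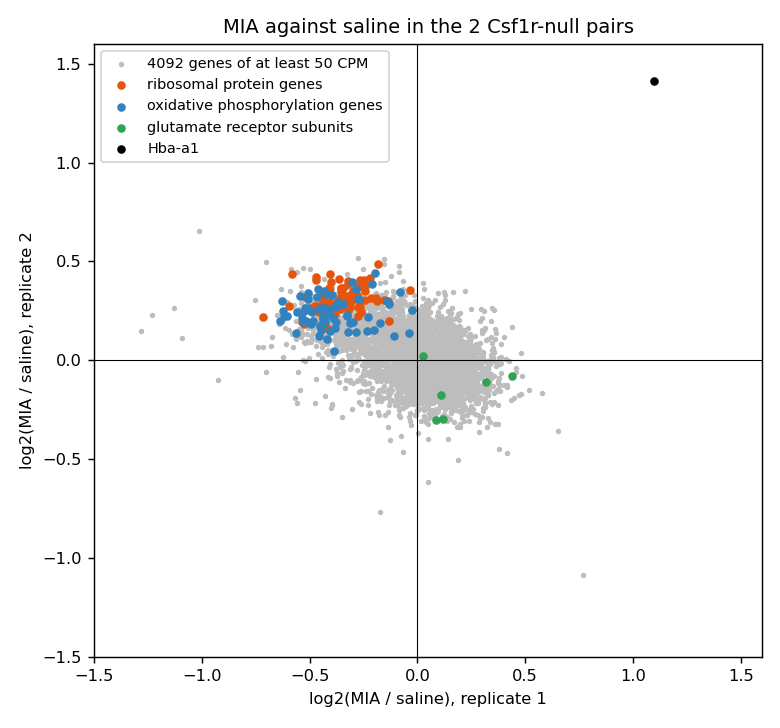
Log2 difference between MIA and saline in pair 1 (horizontal) and pair 2 (vertical) for 4092 genes with a mean of at least 50 CPM in the Csf1r-null libraries. Ribosomal protein and oxidative phosphorylation genes lie to the upper left, lower after MIA in pair 1 and higher in pair 2, and Hba-a1 lies at the upper right.

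Genes for cytoplasmic protein synthesis and respiration made up the clearest part of this disagreement. All 82 ribosomal protein genes tested were lower after MIA in pair 1 and higher in pair 2, with medians of -0.36 and 0.30 on the log2 scale. Their summed level was 48202 CPM after saline and 38098 after MIA in pair 1, against 43571 and 52669 in pair 2. With both libraries that go against their labels left out, the only Csf1r-null saline library is that of pair 1. The median of -0.40 in that fit is thus not independent of pair 1, where all 82 were lower. Its p-values assume that this 1 library varies like the other groups. No member of the list had an unadjusted p under 0.05, but 57 of 82 had one, all lower, when both libraries that go against their labels were left out (2.86% of all genes tested were lower by that measure).

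Oxidative phosphorylation genes, which encode the respiratory chain and ATP synthase, had the same form. Of 78 nuclear genes tested, 77 were lower after MIA in pair 1 and 78 were higher in pair 2, with medians of -0.41 and 0.23. Sdhc, a subunit of succinate dehydrogenase, was the 1 gene higher in both. Cox4i1 of cytochrome oxidase had 424 and 303 CPM in pair 1 and 367 and 456 in pair 2. The 13 transcripts of the mitochondrial genome were all lower in pair 1 (median -0.56) and all higher in pair 2 (0.43), and mt-Co1 had 64.3, 44.3, 36.4 and 46.1 CPM in saline 1, MIA 1, the library labelled saline 2 and MIA 2. These transcripts are made outside the nucleus, and their share moved in both pairs in the direction of the ribosomal and respiratory genes. The part of cytoplasmic RNA in these differences was not tested.

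In the barcodes outside the nuclei of replicate number 1, these lists had the same direction as in the nuclei of pair 1. Ribosomal protein genes summed to 130118 CPM in saline and 114390 in MIA, and mitochondrial transcripts to 535 and 254. Across the 9473 genes of at least 10 CPM, the log2 difference outside the nuclei had a correlation of 0.54 with that inside them in pair 1, both taken from the same pair of libraries.

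Proteasome subunits, the parts of the complex that degrades tagged proteins, were lower in pair 1 for 28 of 31 genes (median -0.17) and higher in pair 2 for 30 of 31 (0.18). Psma6 had 109 and 78.5 CPM in pair 1 and 97.1 and 116 in pair 2, and Psma7 had 243, 221, 231 and 284. Psmd1, Psmd2 and Psmd3 of the regulatory particle were higher in both pairs, with 53.7 and 68.2 CPM of Psmd3 in pair 1 and 52.7 and 55.4 in pair 2. None of the 31 had an unadjusted p under 0.05 within Csf1r-null nuclei. Against WT nuclei, 17 of 31 did, all with a more positive change in Csf1r-null (median difference 0.51, where 4.95% of all genes had such a p), but none was called. This count was 2 of 31 without either library of pair 2, 2 without the library labelled WT MIA replicate 2, 8 without WT saline replicate 2 and 7 with no replicate block. It ran from 14 to 23 without each of the others, and was 0 with both libraries that go against their labels left out.

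Heat shock genes gave no common direction. Hspa8, the constitutive heat shock protein of the cytosol, had 1072 and 867 CPM in pair 1 and 897 and 1034 in pair 2, and 7 of the 8 genes tested took opposite directions in the pairs. Among 23 genes of ER stress and the integrated stress response, 4 were higher in both pairs, 7 were lower in both and 12 went opposite ways. Xbp1, a transcription factor of the unfolded protein response, had 82.0 and 56.2 CPM in pair 1 and 86.1 and 73.8 in pair 2, lower after MIA in both, with a log2 fold change of -0.37, SE 0.14 (edgeR, unadjusted p = 0.0275, adjusted p = 1). Ddit3, a factor of the same response, had 23.9 and 18.9 CPM in pair 1 and 22.4 and 18.3 in pair 2.

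Glutamate receptor and chromatin genes mostly had higher values in pair 1 and lower values in pair 2. Of 14 glutamate receptor subunits, 12 were higher after MIA in pair 1 (median 0.14) and 1 was higher in pair 2 (-0.26). Grin2b of the NMDA receptor had 480 and 531 CPM in pair 1 and 388 and 309 in pair 2, and Gria3 of the AMPA receptor had 123, 169, 108 and 100. Of 18 autism-linked chromatin and transcription genes, 15 were higher in pair 1 and 3 in pair 2, with medians of 0.16 and -0.10. Auts2, one of the genes the study names for nuclei, had 2725 and 3241 CPM in pair 1 and 3112 and 2857 in pair 2.

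Tshz3, a transcription factor gene of cortical projection neurons chosen here after its values were seen, was the most extreme of the opposed genes in pair 2 among those of at least 50 CPM. It had 172 CPM after saline and 299 after MIA in pair 1, and 325 and 150 in pair 2. All 6 nuclear-retained long RNAs tested were higher in pair 1 and lower in pair 2, Meg3 with 1349 and 1648 CPM and then 1056 and 905. Malat1, the most abundant of them, stood at 134243 and 136979 CPM in pair 1 and 186999 and 174339 in pair 2.

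**Figure D4:**
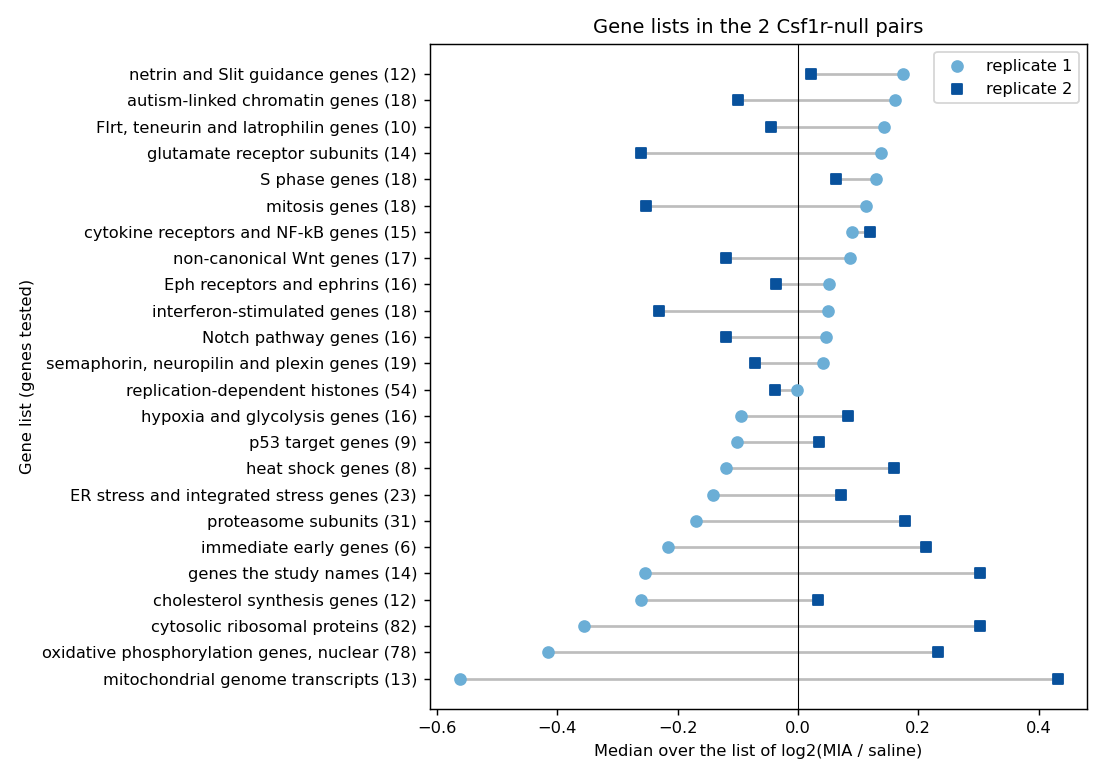
Median log2 difference between MIA and saline over the tested genes of each pathway list (number in brackets), in pair 1 (circles) and pair 2 (squares). Mitochondrial, oxidative phosphorylation and ribosomal lists lie from -0.56 to -0.36 in pair 1 and from 0.23 to 0.43 in pair 2, while cytokine receptor, S phase and netrin and Slit lists lie above 0 in both pairs.

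Immune response genes gave no call. Of 29 interferon-stimulated genes listed, 18 passed the filter on low counts, 2 were higher in both pairs, 5 were lower in both and none had an unadjusted p under 0.05. Isg15, a ubiquitin-like protein induced by interferon, had 1.24 and 0.946 CPM in pair 1 and 0.822 and 0.639 in pair 2, and B2m, a light chain of MHC class I, had 4.96, 2.97, 5.24 and 4.84. Of 15 cytokine receptor and NF-kB genes tested, 7 were higher in both pairs and none lower in both. Il17ra, the receptor for interleukin 17a, had 6.82 and 8.92 CPM in pair 1 and 6.68 and 8.12 in pair 2, a log2 fold change of 0.34, SE 0.21 (edgeR, unadjusted p = 0.142). The median change of this list was 0.08, against 0.01 over all genes tested.

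Cell cycle genes gave no call either. Of 18 S phase genes, 8 were higher after MIA in both pairs, 3 were lower in both and 7 went opposite ways (median of the fit 0.13). The 8 included Mcm2, Mcm3, Mcm4 and Mcm6 of the replicative helicase. Uhrf1, which maintains DNA methylation at replication, had 15.4 and 19.3 CPM in pair 1 and 12.02 and 15.9 in pair 2 (log2 fold change 0.37, SE 0.16, edgeR unadjusted p = 0.0482). Of 18 mitosis genes, 1 was higher in both pairs, 5 were lower in both and 12 went opposite ways (median -0.06). Cdk1, the kinase that drives entry into mitosis, had 18.5 and 13.7 CPM in pair 1 and 17.2 and 12.4 in pair 2, a log2 fold change of -0.45, SE 0.16 (unadjusted p = 0.0205, adjusted p = 1).

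Surface and guidance genes gave no common direction. Flrt1, which links neurons through latrophilins and teneurins and is named by the study, had 81.8 and 113 CPM in pair 1 and 46.4 and 51.0 in pair 2 (log2 fold change 0.32, SE 0.18, edgeR unadjusted p = 0.109). The list of Flrt, teneurin and latrophilin genes had 1 of 10 genes higher in both pairs, Flrt1 itself, and 2 lower in both. Of the netrin and Slit genes tested, 4 of 12 were higher in both and none lower, among them Ntn4 with 10.8 and 13.6 CPM and then 9.55 and 11.8. Of 17 Eph receptor and ephrin genes listed, 16 were tested, and 3 were higher in both pairs, 1 was lower in both and 12 went opposite ways. Among 16 Notch pathway genes 2 were higher in both and 5 lower in both.

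Of the 14 genes the study names for nuclei, 4 are the adult-type globins, and the list is not independent of these libraries. Only Hba-a1 and Hba-a2 had an unadjusted p under 0.05, both higher, and 11 of 14 went opposite ways in the 2 pairs. Ppia, the cytosolic cyclophilin A, had 974 and 719 CPM in pair 1 and 767 and 884 in pair 2, and Banf1, a nuclear envelope protein, had 113, 85.5, 87.3 and 107. Tenm4, a teneurin, had 279 and 344 CPM in pair 1 and 215 and 211 in pair 2.

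Outside the globins, the genes with the lowest p among those of at least 10 CPM that moved alike in both pairs changed by 0.31 to 0.50 on the log2 scale upward and 0.32 to 0.84 downward, and each had an adjusted p of 1. Higher after MIA were Fbln1, an extracellular matrix protein, with 26.8 and 37.6 CPM in pair 1 and 28.9 and 33.0 in pair 2, Pex11a of peroxisomes with 8.68, 11.3, 8.63 and 13.4, and Inafm2, Fbxw8, Carf, Gm16152 and A330084C13Rik. The MIA libraries did not lie above both saline libraries for all of these: Gm16152 had 109 and 140 CPM in pair 1 and 72.0 and 84.7 in pair 2.

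Lower after MIA, beside Xbp1 and Cdk1, were Krt10, a keratin, with 42.4 and 31.6 CPM in pair 1 and 46.8 and 38.3 in pair 2, and Nkain3 with 147, 101, 137 and 116. Slc16a7, a monocarboxylate transporter, had 17.4 and 13.3 CPM in pair 1 and 14.8 and 9.95 in pair 2. Phykpl, Gm10558, 4921534H16Rik, 4833422C13Rik and 8030451O07Rik were lower in both pairs as well. For 4921534H16Rik the replicate numbers stood further apart than the treatments, at 30.7 and 15.9 CPM in pair 1 and 6.16 and 3.92 in pair 2. The annotation lists Gm10558, 4921534H16Rik and 4833422C13Rik as antisense genes, as it does Gm16152 and A330084C13Rik, and how strand was counted is not given in the sources used here.

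Alone, the 4 Csf1r-null libraries gave 9 calls in edgeR with the replicate block. The 4 higher genes were Hba-x, Hbb-y, Hba-a1 and Hba-a2. The 5 lower ones were Ebf1, C1qb, 4921534H16Rik, 8030451O07Rik and Slc15a2. C1qb is the microglial gene that had 25 UMIs in the library labelled saline replicate 2 and none in the other Csf1r-null libraries. Ebf1, a marker of ventral forebrain neurons, had 7.71 and 5.54 CPM in pair 1 and 30.8 and 10.4 in pair 2, so its highest value was also that of the library labelled saline replicate 2. Slc15a2, a peptide transporter, had 16.2, 11.8, 33.4 and 17.1 CPM in the same order.

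Markers of the main cortical cell types were detected in all 4 libraries. Apical progenitor markers (10 genes) summed to 848 and 922 CPM in pair 1 and 1014 and 977 in pair 2. Intermediate progenitor markers (7 genes) summed to 712, 697, 772 and 857 CPM, and callosal projection neuron markers (7 genes) to 2094, 1784, 1724 and 1785. Subcerebral projection neuron markers (5 genes) had 789 and 1056 CPM in pair 1 and 705 and 639 in pair 2, with Bcl11b at 465, 662, 389 and 360. No marker of these 4 lists had an unadjusted p under 0.05.

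Markers of interneurons, which migrate into the cortex from the ventral forebrain, had 321 and 361 CPM in pair 1 and 388 and 298 in pair 2. In pair 1, 11 of the 13 were higher after MIA, and in pair 2 all 13 were lower. Ventral forebrain markers summed to 41.3 and 38.4 CPM in pair 1 and 66.0 and 36.6 in pair 2, and Cajal-Retzius markers to 88.5, 131, 83.0 and 62.4. Reln, the signal secreted by Cajal-Retzius cells, had 52.8 and 84.6 CPM in pair 1 and 46.3 and 35.4 in pair 2. The value that stood out among the ventral forebrain sums was again that of the library labelled saline replicate 2.

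Vascular cells, through which blood could enter the sample, gave low values. Endothelial markers summed to 10.6 and 13.8 CPM in pair 1 and 17.8 and 10.0 in pair 2, and pericyte markers to 21.3, 18.4, 25.3 and 20.9. Of 7 pericyte genes tested, 4 were lower after MIA in both pairs, 3 went opposite ways and 0 were called. Among the 4, Vtn and Higd1b had unadjusted p of 0.0215 and 0.0321 in edgeR, where 0.717% of all genes were lower at a p under 0.05. Vtn had 2.34 and 0.743 CPM and then 2.46 and 1.46, and Higd1b rested on 10, 1, 7 and 4 UMIs in the same order. The 10 erythroid markers summed to 203 and 352 CPM in pair 1 and 208 and 421 in pair 2. Besides meningeal fibroblasts, migrating neurons and oligodendrocyte precursors, no other list had a higher sum after MIA in both pairs. Single nuclei held 2838 and 788 of the 5210 erythroid UMIs of MIA replicate 1, and 2388 of the 4612 of MIA replicate 2. Globins of nuclei under 5 globin UMIs, chosen by these counts, made up 166 and 86.7 CPM in pair 1 and 140 and 177 in pair 2. In the libraries labelled WT the erythroid sum was lower after MIA in both pairs, at 545 and 323 CPM and 385 and 263, the last in the library whose microglial markers go against its label.

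**Figure D5:**
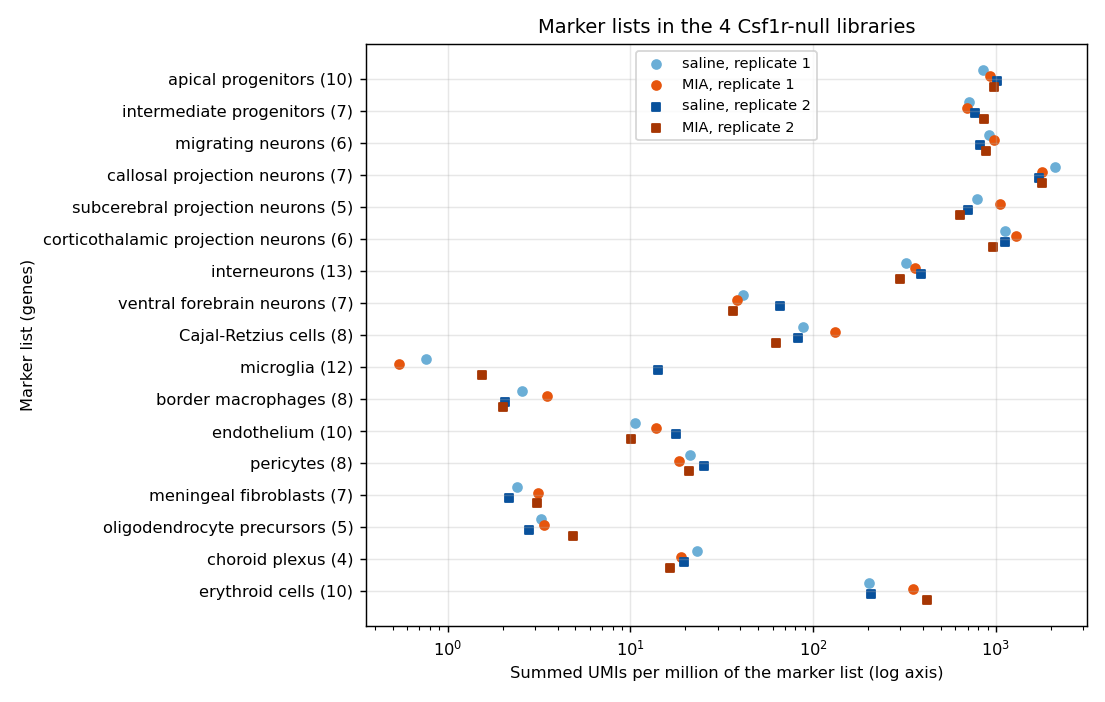
Summed CPM (log axis) of 17 marker lists in the 4 Csf1r-null libraries, with the number of genes in brackets. The microglial list lies at 14.2 in the library labelled saline replicate 2 against 0.541 to 1.55 in the others, and the erythroid list lies at 352 and 421 after MIA against 203 and 208 after saline.

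The library that carries the label Csf1r-null saline replicate 2 entered every value of pair 2. Over the 4092 genes of at least 50 CPM, the log2 difference between libraries had an SD of 0.15 between it and MIA replicate 2 and 0.21 within pair 1, against 0.37 to 0.49 between replicate numbers. Without it the log2 fold change of Hba-x in Csf1r-null nuclei was 6.53 in place of 3.96, and the median change of ribosomal protein genes was -0.26 in place of -0.03. It moved about as far without any other Csf1r-null library, to -0.23 without MIA replicate 2, 0.22 without saline replicate 1 and 0.17 without MIA replicate 1. With the library labelled WT MIA replicate 2 left out as well, edgeR called Hba-x and Hbb-y, and genes lower after MIA at an unadjusted p under 0.05 were 415 of all 14509 tested and higher ones 61 (0.42%). Such lower genes were 57 of 82 ribosomal protein genes (median -0.40), 40 of 78 oxidative phosphorylation genes (-0.37), 6 of 13 mitochondrial transcripts (-0.77), 4 of 31 proteasome subunits (-0.16) and 3 of the 14 genes the study names (-0.23), none of them called. In those fits the saline side of the Csf1r-null comparison is the 1 library of pair 1.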

How the data were processed

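Nuclei were sorted from flash-frozen male cortex and sequenced with the 10x Chromium 3′ assay. The deposited matrices are raw UMI counts, from Cell Ranger run by the authors on mm10 (version 3.1.0 for replicate number 1 and 6.0.1 for number 2 per the file headers). Whether intronic reads were counted is not given in the sources used here. The gene lists hold 31053 and 32285 genes, of which 30406 were joined by Ensembl ID, with 98.2% to 99.6% of each library's UMIs. Doublets were not called.

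Summed counts were tested with edgeR 4.0.16 in R 4.3.3 (filterByExpr, TMM, quasi-likelihood test, Benjamini-Hochberg at 0.05) over 8 nuclei libraries, 4 groups of 2, with the replicate number as a block, which leaves 3 residual degrees of freedom. Fits with this block on fewer libraries leave fewer. Same-numbered libraries deviated together from their group means (r of 0.50 to 0.68 over 6 pairs of groups), and the number also stands for the Cell Ranger version, the gene list and the barcodes listed in the files. Alternatives included DESeq2 1.42.0. CPM values are UMIs per 1000000 joined UMIs, and differences within a pair are of TMM-scaled log2 CPM with a prior count of 2. Coordinates come from GENCODE vM21 (GRCm38, the build named mm10).

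Named genes were those called, the 10 higher and 10 lower with the lowest p among genes of at least 10 CPM that moved alike in both pairs, the most abundant and lowest-p members of each list, and the genes the study names. The members and lists were chosen with earlier results of these data known. Limits from counting cover counting error only.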

Additional observations from a re-analysis of the deposited data

Results flagged for a closer look

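Hba-a1 and Hba-a2 were singled out because their change after MIA differed between nuclei labelled Csf1r-null and WT by edgeR's test of the difference, by 2.07 and 1.93 on the log2 scale (adjusted p = 0.0248 for each), with both pairs labelled Csf1r-null higher and both labelled WT lower after MIA. The 2 genes share most of their transcript sequence and are not independent. Without nuclei of at least 5 globin UMIs the differences were 0.43 and 0.58 and neither was called, which can follow from the choice of nuclei by their globin counts. Saline replicate 2 of the first and MIA replicate 2 of the second have microglial markers that go against their labels, and 0 genes were called without either of them or without both.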

How the results depend on the processing

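In Csf1r-null nuclei the count of 0 genes called was also found with no replicate block, RLE factors, library totals, nuclei of at least 1000 UMIs, the 5% deepest nuclei left out and globin-rich nuclei left out. It was 9 with the 4 libraries alone, 2 by DESeq2, 3 with no filter on low counts and 2 with both libraries that go against their labels left out, and 0 to 3 with each library left out in turn (3 without WT saline replicate 1 or 2, and 1 without saline replicate 2 of Csf1r-null). For the difference between genotypes the count of 2 became 0 with no replicate block, so it rests on the pairing of libraries by number, which also marks the Cell Ranger version. It was also 0 with the 5% deepest nuclei left out, with both libraries that go against their labels left out and with globin-rich nuclei left out, and 0 to 25 with each library left out in turn: 25 without WT saline replicate 2, 3 without WT saline replicate 1, 1 when MIA replicate 1 of Csf1r-null was left out and 0 for each other library. The log2 fold changes of Hba-a1 and Hba-a2 turned to -0.211 and -0.176 without globin-rich nuclei, which were chosen by their globin counts. Psmb6 turned to -0.014 and Tsg101 to -0.000 without the 5% deepest nuclei, and to -0.206 and -0.168 with both libraries that go against their labels left out, where Kdm5d turned to 0.101. Psmb2 turned to 0.008 and Psmb4 to 0.028 in nuclei of at least 1000 UMIs, and Psmb4 to 0.000 with no block. With 1 library left out, values ran from -0.895 to 0.518 for Hbb-bs, -0.738 to 0.324 for Hbb-bt, -0.249 to 0.089 for Csf1, -0.112 to 0.377 for Tenm4, -0.004 to 0.580 for Flrt1, -0.076 to 0.206 for Auts2, -0.366 to 0.142 for Ppia, -0.419 to 0.209 for Psma6, -0.211 to 0.262 for Psmb6, -0.365 to 0.266 for Psmb2, -0.206 to 0.163 for Psmb4, -0.203 to 0.256 for Tsg101, -0.324 to 0.216 for Banf1, -0.208 to 0.022 for Ddx3y and -0.121 to 0.066 for Kdm5d. The cause of these changes was not tested. Over named genes, 27 of these values changed sign when a library was left out and 10 under other settings. Where an arm is left with 1 library, it is assumed to vary like the other groups.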
